A study of Mus musculus with 6 samples.

Results

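The 10 genes described here, Timd4, Lyve1, Folr2, Cd163, Mrc1, Fcna, Cbr2, F13a1, Retnla and Clec10a, are known from tissue-resident and alternatively activated macrophages of the mouse. They were taken as a fixed list of symbols, matched to Ensembl identifiers on GRCm38, and all 10 were found among the 46603 identifiers of each count table and among the 15828 genes tested. The sequenced RNA came from visceral adipose tissue (fat around the abdominal organs) of untreated C57/Bl6 mice aged 18 months. There were 3 libraries from NM1 KO mice, which lack nuclear myosin 1, and 3 from wild-type (WT) mice. Nuclear myosin 1 is a nuclear isoform of the motor protein encoded by Myo1c. Replicates are numbered in the labels with no word on whether they are different animals, and every p-value therefore covers only the spread of these 6 samples, part or all of which may be technical. The labels give neither the sex of the mice nor the altered part of Myo1c.

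Macrophages of adipose tissue fall broadly into resident cells, which lie along vessels, clear dead cells and take up macromolecules, and recruited cells that gather lipid in obesity. Resident cells carry scavenger and lectin receptors on their surface. Interleukin-4 and interleukin-13, acting through the transcription factor STAT6, induce a partly shared set of genes that is called alternative activation, of which Mrc1, Retnla and Clec10a are standard mouse markers.

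The total gene counts lay between 27525446 and 33537818 in the NM1 KO libraries and between 24677758 and 31228723 in the WT libraries. Levels are given in CPM, counts scaled to a common library size, and group levels as mean ± SD (n = 3). Log2 fold changes (NM1 KO over WT) carry their SE. A gene counts as called where edgeR's quasi-likelihood F-test gave a Benjamini-Hochberg adjusted p below 0.05 over all genes. Myo1c itself was at 567 ± 123 CPM in NM1 KO and 787 ± 24.3 CPM in WT and was not called (adjusted p = 0.151). Every NM1 KO library (452, 697 and 551 CPM) lay below every WT library (801, 759 and 801 CPM), as for 15% of all genes tested. Of the 15 alternative fits described below, 2 called Myo1c lower. Its count covers every isoform, so it does not check the knockout. Fat cell markers were abundant throughout. The 6 examined were Adipoq, Plin1, Cidec, Lep, Fabp4 and Pparg. Their summed level lay between 18340 and 21700 CPM in NM1 KO and between 18270 and 19660 CPM in WT. The edgeR fit called 0 of the 6, with 1, Lep, higher at an unadjusted p under 0.05, and DESeq2 called 1 higher. Lep was at 4346 ± 546 CPM in NM1 KO and 1946 ± 864 CPM in WT (edgeR adjusted p = 0.0805), with no overlap. Adipoq was lower in NM1 KO without overlap.

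None of the 10 macrophage genes was called by edgeR, where 4.25% of all genes tested were. Of the 10, 8 had a negative and 2 a positive log2 fold change, with a median of -0.59 beside -0.002 over all genes tested. At an unadjusted p under 0.05 there were 4, with Timd4, Fcna and Lyve1 lower and Mrc1 higher, and 23.7% of all genes passed the same mark, 13% higher and 10.8% lower. The libraries of these 4 genes were also fully separated by group in CPM, which held for 29.9% of all genes tested (14.9% higher and 15% lower). DESeq2 called these 4, where it called 14.2% of all genes (8.23% higher and 5.94% lower). Limma-voom with sample quality weights called Fcna lower and Mrc1 higher, where it called 10.4% of all genes (6.1% higher and 4.32% lower). In bulk tissue, fewer cells of a type and less RNA per cell cannot be told apart.

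**Figure D1:**
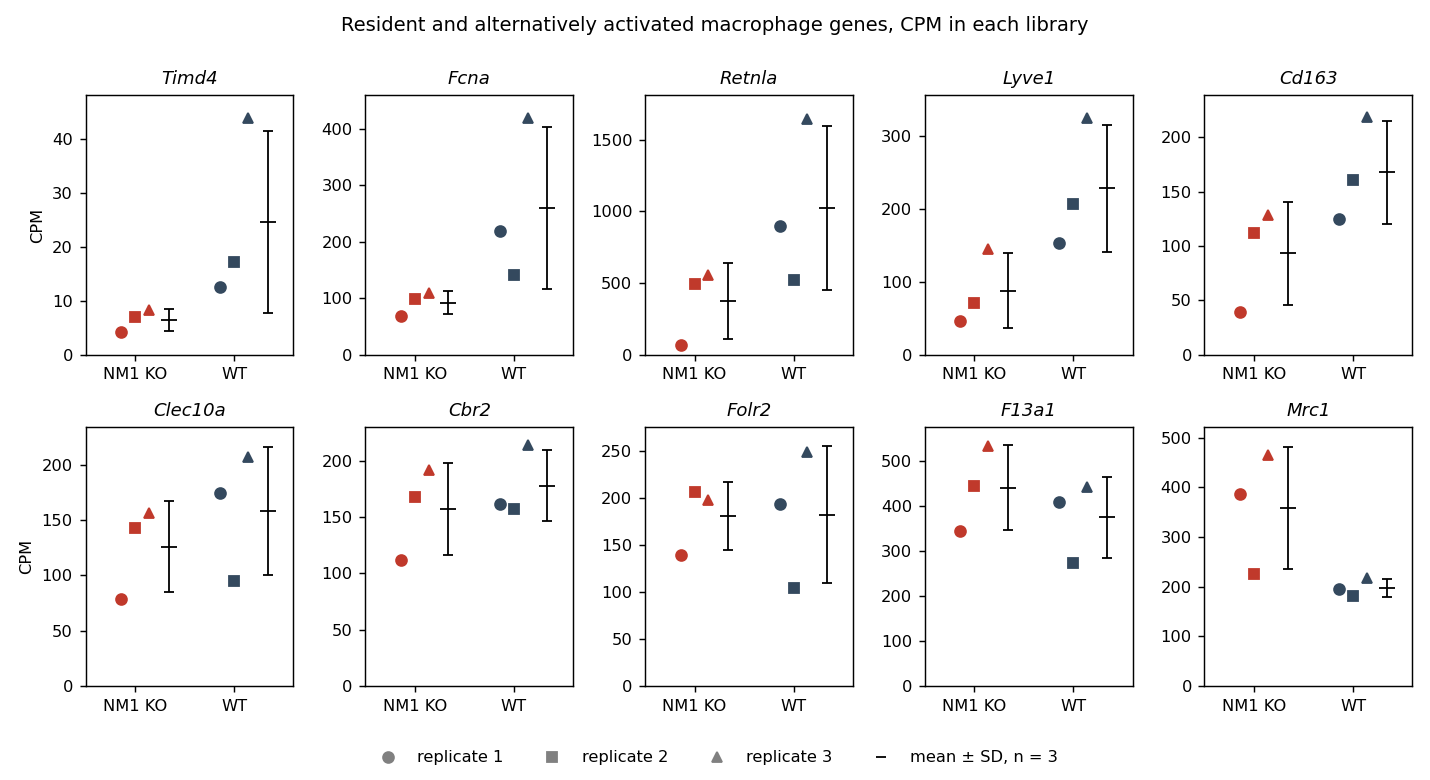
CPM (vertical axes, starting at 0) of the 10 genes in each NM1 KO and WT library, ordered by log2 fold change. Points are libraries, with a marker shape per replicate number, and bars are mean ± SD. The NM1 KO points lie below all WT points for Timd4, Fcna and Lyve1, above them for Mrc1, and overlap them for the other 6 genes.

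The promoters of 4 members are shown, none of them called by edgeR. For 3 of them the ranges did not overlap. Retnla, whose ranges overlapped, was the most abundant member and the one with the widest spread within NM1 KO. RefSeq (GRCm38.p6) gave start sites for 8 of the 10 members, with 10 windows in all, and none was matched for Lyve1 and Clec10a. Each stretch reads 5′ to 3′ on the gene's strand, starts 250 bases before the RefSeq start site and stops where the GENCODE gene begins. Capitals mark matches to GAGGAA, the core recognised by the myeloid factor PU.1, to TGCTGA, a core bound by MAF factors, and to a STAT6 site (TTC and GAA with 4 bases of any kind between them), on either strand. No matches overlapped each other.
Timd4, chr11:46810549-46810798, plus strand: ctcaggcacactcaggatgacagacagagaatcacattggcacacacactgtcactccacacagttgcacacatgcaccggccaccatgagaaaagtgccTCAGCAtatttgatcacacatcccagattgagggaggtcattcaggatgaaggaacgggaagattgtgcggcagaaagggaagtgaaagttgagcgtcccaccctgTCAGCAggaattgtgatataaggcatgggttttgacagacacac
Fcna, chr2:25628031-25628224, minus strand: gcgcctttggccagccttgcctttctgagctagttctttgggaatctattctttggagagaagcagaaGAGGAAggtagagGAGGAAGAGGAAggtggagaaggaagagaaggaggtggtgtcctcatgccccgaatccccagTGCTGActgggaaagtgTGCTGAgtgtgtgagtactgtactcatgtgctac
Mrc1, chr2:14229164-14229391, plus strand: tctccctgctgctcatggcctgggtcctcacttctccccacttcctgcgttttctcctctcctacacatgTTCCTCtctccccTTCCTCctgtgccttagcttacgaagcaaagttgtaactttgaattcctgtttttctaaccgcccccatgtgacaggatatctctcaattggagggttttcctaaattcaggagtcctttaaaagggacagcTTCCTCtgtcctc
Retnla, chr16:48842359-48842550, plus strand: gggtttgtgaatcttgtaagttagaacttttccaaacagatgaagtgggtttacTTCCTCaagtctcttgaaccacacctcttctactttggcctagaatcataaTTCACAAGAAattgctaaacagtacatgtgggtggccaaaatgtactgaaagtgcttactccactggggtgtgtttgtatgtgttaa

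Timd4 held the MAF core at 150 and 44 bases before its start site. Fcna held it at 107 and 90 bases and the PU.1 core at 182, 169 and 163 bases before its start. Mrc1 held the PU.1 core at 180, 167 and 35 bases and neither of the other motifs. Retnla held a PU.1 core at 196 bases and a STAT6 match at 145 bases, and a MAF core at 47 bases lies in the part not printed. The last 58 bases of the Retnla window lie inside the GENCODE gene. It was the only member window for which a stretch just after the start site was not found in the gene's transcripts. The distances for Retnla are therefore uncertain. Over the 250 bases before the start, the PU.1 core occurred in 5 of the 10 member windows and in 23.3% of all 32851 windows of the table. The MAF core occurred in 5 member windows, both windows of Folr2 among them, and 16.1% of all. The STAT6 site occurred in 1 member window and 5.85% of all. These are matches of letters only.

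Among the receptors, Timd4 (ENSMUSG00000055546, chromosome 11, 46810800 to 46844332 on GRCm38) encodes TIM-4, which binds phosphatidylserine on dying cells and marks long-lived resident macrophages. It was at 4.22, 6.96 and 8.27 CPM in NM1 KO replicates 1 to 3, against 12.6, 17.2 and 43.9 CPM in WT replicates 1 to 3. Every NM1 KO library lay below every WT library, and WT replicate 3 stood far above the other two. The log2 fold change was -1.92 ± 0.50 (adjusted p = 0.0774), and it was -1.21 without WT replicate 3. Timd4 was the member with the fewest counts, and 131 counts in NM1 KO replicate 1 gave 4.20 CPM of the unscaled total, with an exact 95% binomial interval of 3.51 to 4.98 that covers counting error only. Large peritoneal macrophages carry TIM-4 too. Their 7 markers summed to between 95.3 and 207 CPM in NM1 KO and between 103 and 238 CPM in WT. Much of the highest sum in each group was Prg4, a gene picked out after its values were seen. It was at 92.75 CPM in NM1 KO replicate 1 and 104 CPM in WT replicate 2. Of the 7 markers 1, Icam2, was lower at an unadjusted p under 0.05. Neither edgeR nor DESeq2 nor limma-voom called any of the 7 (0 calls each), and none was at 0. Their defining factor Gata6 was at 25.5, 35.6 and 30.8 CPM in NM1 KO replicates 1 to 3, against 30.2, 30.6 and 44.2 CPM in WT replicates 1 to 3 (adjusted p = 0.597), and Icam2, an adhesion molecule, was at 12.4 ± 1.61 CPM in NM1 KO and 16.6 ± 1.33 CPM in WT (adjusted p = 0.151). Every Icam2 level in NM1 KO lay below every WT level, as for 15% of all genes tested. The part of large peritoneal macrophages in the Timd4 level was not tested.

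Lyve1 (ENSMUSG00000030787, chromosome 7, 110850607 to 110863239) encodes a receptor for hyaluronan found on perivascular macrophages and on lymphatic endothelium. It was at 46.0, 71.5 and 146 CPM in NM1 KO replicates 1 to 3, against 154, 207 and 325 CPM in WT replicates 1 to 3. The ranges did not overlap, but NM1 KO replicate 3 came close to WT replicate 1. The log2 fold change was -1.38 ± 0.45 (adjusted p = 0.127).

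Markers of lymphatic endothelium did not all follow Lyve1. Their summed level over 7 genes was lower in NM1 KO without overlap, at 88.1 to 97.0 CPM in NM1 KO and 103 to 221 CPM in WT, most of it Pdpn, which other stromal cells also make. Flt4, a receptor for lymphatic growth factors, was at 8.21, 7.14 and 9.66 CPM in NM1 KO replicates 1 to 3, against 21.5, 11.8 and 13.9 CPM in WT replicates 1 to 3, with no overlap between the groups, as for Lyve1. Prox1, the transcription factor that defines these cells, was at 4.02, 0.214 and 0.583 CPM in NM1 KO replicates 1 to 3, against 0.518, 0.192 and 0.962 CPM in WT replicates 1 to 3. Its highest level was thus in NM1 KO replicate 1, where Lyve1 was lowest. Mmrn1, a secreted glycoprotein, and Ccl21a, a chemokine, both picked out after their values were seen, also peaked there, at 11.4 and 15.1 CPM. Both had 0 counts in WT replicate 2, where Lyve1 was at 207 CPM. None of the 6 that could be tested was called by edgeR or limma-voom, Flt4 and Pdpn were lower at an unadjusted p under 0.05, and DESeq2 called Flt4 lower. The part of lymphatic endothelium in the Lyve1 level was not tested.

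**Figure D2:**
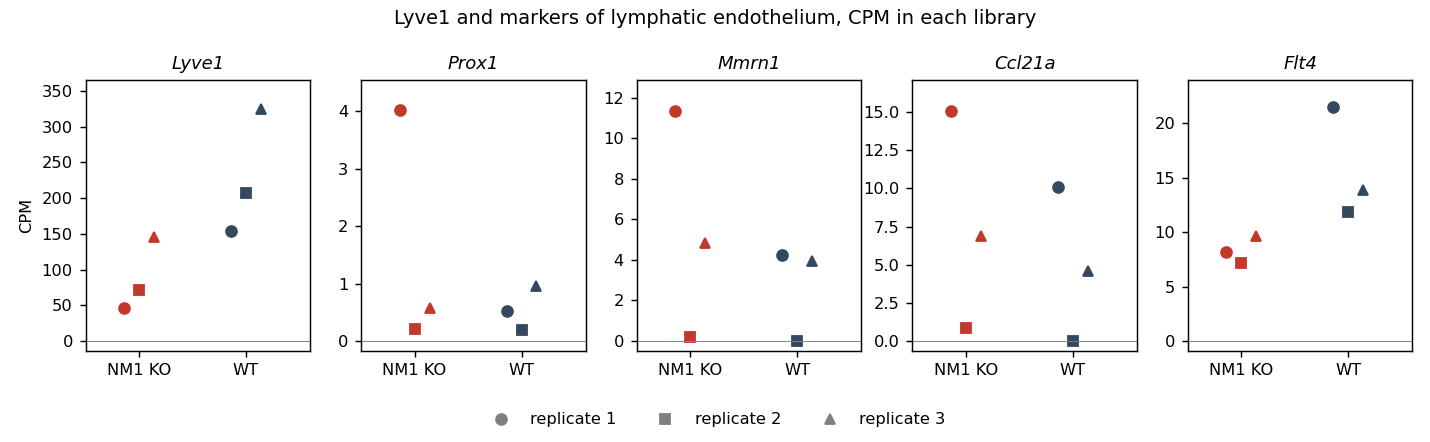
CPM (vertical axes) of Lyve1 and of 4 markers of lymphatic endothelium in each NM1 KO and WT library. Points are libraries, with a marker shape per replicate number. NM1 KO replicate 1 has the lowest Lyve1 (46.0 CPM) and the highest Prox1, Mmrn1 and Ccl21a, and WT replicate 2 has 207 CPM of Lyve1 with 0 counts of Mmrn1 and Ccl21a.

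Cd163 (ENSMUSG00000008845, chromosome 6, 124304656 to 124330527) encodes the scavenger receptor for haemoglobin bound to haptoglobin. It was at 39.0, 112 and 128 CPM in NM1 KO replicates 1 to 3, against 125, 160 and 218 CPM in WT replicates 1 to 3. The groups overlapped, since NM1 KO replicate 3 exceeded WT replicate 1, and NM1 KO replicate 1 stood well below the rest. The log2 fold change was -0.85 ± 0.43 (adjusted p = 0.276), and it was -0.47 without NM1 KO replicate 1.

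Mrc1 (ENSMUSG00000026712, chromosome 2, 14229392 to 14332057) encodes the mannose receptor CD206, an endocytic lectin of resident and alternatively activated macrophages. It was at 386, 225 and 466 CPM in NM1 KO replicates 1 to 3, against 195, 182 and 218 CPM in WT replicates 1 to 3. Every NM1 KO library lay above every WT library, but NM1 KO replicate 2 lay just above WT replicate 3. The log2 fold change was 0.86 ± 0.25 (adjusted p = 0.104). Without NM1 KO replicate 2 it was 1.10 and was called (adjusted p = 0.0156), in a fit that called 10.2% of all genes (7.26% higher and 2.91% lower). After an offset for GC content and transcript length in each library it was 0.55 (adjusted p = 0.122). Mrc1 and Timd4 share the label of resident macrophage genes and lay on opposite sides of WT in all 3 NM1 KO libraries.

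Folr2 (ENSMUSG00000032725, chromosome 7, 101839988 to 101857194) encodes folate receptor beta. It was at 139, 206 and 197 CPM in NM1 KO replicates 1 to 3, against 194, 104 and 248 CPM in WT replicates 1 to 3. The NM1 KO libraries lay within the WT range, and the log2 fold change was -0.011 ± 0.31 (adjusted p = 0.988). Its sign changed with the processing.

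Clec10a (ENSMUSG00000000318, chromosome 11, 70156197 to 70170834), a lectin for galactose and N-acetylgalactosamine, was at 79.0, 142 and 156 CPM in NM1 KO replicates 1 to 3, against 174, 94.6 and 207 CPM in WT replicates 1 to 3. The groups overlapped, with a log2 fold change of -0.33 ± 0.34 (adjusted p = 0.601). Its neighbour and near copy Mgl2, a lectin of the same family, was at 12.4, 53.5 and 40.9 CPM in NM1 KO replicates 1 to 3, against 70.6, 114 and 99.7 CPM in WT replicates 1 to 3. The Mgl2 ranges did not overlap, with a log2 fold change of -1.41 ± 0.48 that was not called (adjusted p = 0.139) by edgeR and was called by DESeq2 (adjusted p = 0.0179). Of the 50-base windows of the longest Clec10a transcript, 10.6% also occur in Mgl2, so the split of counts between these genes is uncertain. Clec10a lies 5.48 Mb from Myo1c on the same chromosome. The 7 markers of dendritic cells, which can make Clec10a and Mrc1, summed to between 46.4 and 57.8 CPM in NM1 KO and between 60.4 and 80.0 CPM in WT. This summed level was lower in NM1 KO without overlap. The single changes of the 7 went both ways, with 3 positive and 4 negative log2 fold changes, and none was at 0. Cd209a, picked out after its values were seen, was at 6.21, 20.3 and 14.9 CPM in NM1 KO replicates 1 to 3. In WT replicates 1 to 3 it was at 23.1, 43.0 and 17.3 CPM (edgeR adjusted p = 0.255), so its ranges overlapped. The edgeR fit called none of the 7, and at an unadjusted p under 0.05 Xcr1 and Ccr7 were higher and Zbtb46 was lower. DESeq2 called Xcr1 and Ccr7 higher and limma-voom Xcr1 higher, and neither called any of the 7 lower. Xcr1, a chemokine receptor of cross-presenting dendritic cells, was at 1.74 ± 0.157 CPM in NM1 KO and 0.684 ± 0.182 CPM in WT (edgeR adjusted p = 0.0768). Ccr7, a chemokine receptor of migrating dendritic cells, was at 14.3, 5.58 and 2.59 CPM in NM1 KO replicates 1 to 3, against 0.961, 3.00 and 2.16 CPM in WT replicates 1 to 3 (edgeR adjusted p = 0.155). Zbtb46, a transcription factor of conventional dendritic cells, was at 14.8 ± 3.21 CPM in NM1 KO and 22.3 ± 4.61 CPM in WT (edgeR adjusted p = 0.162). The part of dendritic cells in the Clec10a and Mgl2 levels was not tested.

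Of the secreted proteins, Fcna (ENSMUSG00000026938, chromosome 2, 25624666 to 25628030) encodes ficolin A, which binds acetylated sugars and starts the lectin pathway of complement. It was at 69.1, 98.1 and 109 CPM in NM1 KO replicates 1 to 3, against 219, 141 and 420 CPM in WT replicates 1 to 3. Every NM1 KO library lay below every WT library, and the WT libraries spread over 2.98-fold against 1.58-fold within NM1 KO. The log2 fold change was -1.50 ± 0.39 (adjusted p = 0.0786), and it was -0.97 without WT replicate 3. Its paralog Fcnb had 0 counts in all 6 libraries.

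Retnla (ENSMUSG00000061100, chromosome 16, 48842551 to 48844461) encodes the secreted protein RELM-alpha, a product of interleukin-4 treated macrophages. It was at 67.2, 491 and 555 CPM in NM1 KO replicates 1 to 3, against 898, 523 and 1645 CPM in WT replicates 1 to 3. NM1 KO replicate 1 stood far below the other 5 libraries, with an 8.26-fold spread within NM1 KO, and the groups overlapped because NM1 KO replicate 3 exceeded WT replicate 2. The log2 fold change was -1.46 ± 0.75 (adjusted p = 0.284). It was -0.95 without NM1 KO replicate 1 and -0.94 without WT replicate 3. The related gene Retnlg, known from neutrophils, was at most 0.824 CPM in NM1 KO and 12.1 CPM in WT. Markers of eosinophils, a source of interleukin-4, summed to between 2.81 and 14.5 CPM in NM1 KO and between 4.93 and 8.92 CPM in WT. Of these 5 markers Epx, eosinophil peroxidase, had 0 counts in all 6 libraries, and of the 4 tested none was called by edgeR, DESeq2 or limma-voom, with 1 lower at an unadjusted p under 0.05.

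F13a1 (ENSMUSG00000039109, chromosome 13, 36867178 to 37050244) encodes the A subunit of coagulation factor XIII, a transglutaminase that cross-links fibrin. It was at 344, 445 and 532 CPM in NM1 KO replicates 1 to 3, against 408, 273 and 442 CPM in WT replicates 1 to 3. The groups overlapped, with a log2 fold change of 0.23 ± 0.23 (adjusted p = 0.575). Monocytes and platelets also make this subunit. The 5 monocyte markers summed to between 56.5 and 113 CPM in NM1 KO and between 63.2 and 150 CPM in WT, and the 5 platelet markers to between 16.2 and 33.99 CPM in NM1 KO and between 23.9 and 37.3 CPM in WT. Chil3, a monocyte marker, also stands in the list of alternative activation below. None of either list was called by edgeR, DESeq2 or limma-voom or had an unadjusted p under 0.05, and none was at 0.

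The remaining member is an enzyme. Cbr2 (ENSMUSG00000025150, chromosome 11, 120729489 to 120732114) encodes carbonyl reductase 2, which reduces aldehydes and ketones. It was at 112, 167 and 192 CPM in NM1 KO replicates 1 to 3, against 162, 157 and 214 CPM in WT replicates 1 to 3. The groups overlapped, with a log2 fold change of -0.18 ± 0.22 (adjusted p = 0.662). Of its 50-base windows, 15.1% also occur in the annotated gene Gm11771, which was at 0.0965 CPM or lower in every library.

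**Figure D3:**
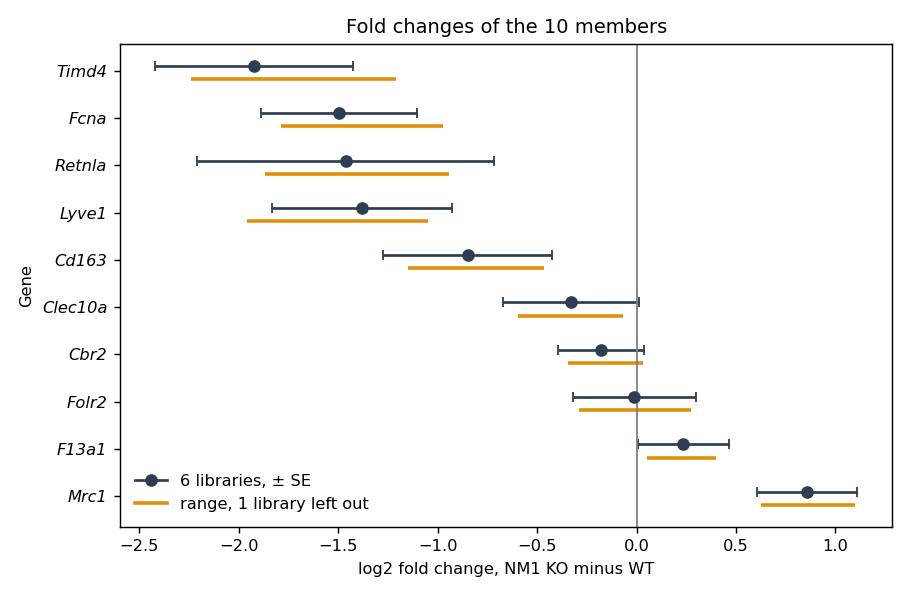
Log2 fold change (horizontal axis, NM1 KO minus WT) of the 10 genes. Points are estimates from 6 libraries with SE, and orange bars span the 6 estimates that each leave out 1 library. The bars stay on 1 side of 0 for 8 genes and cross it for Cbr2 and Folr2.

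Per length of the longest transcript, Retnla was the most abundant member in both groups, at 619.5 CPM per kilobase in NM1 KO and 1706 CPM per kilobase in WT. In NM1 KO it was followed by Folr2 (150), Cbr2 (141), F13a1 (111), Fcna (67.0), Mrc1 (66.8), Clec10a (54.0), Lyve1 (30.3), Cd163 (20.9) and Timd4 (2.98), all in mean CPM per kilobase. In WT the order was Fcna (189), Cbr2 (160), Folr2 (151), F13a1 (94.7), Lyve1 (79.0), Clec10a (68.0), Cd163 (37.7), Mrc1 (36.9) and Timd4 (11.3). Library values of 7 of the 9 neighbouring pairs overlapped in each group. The separated pairs were F13a1 and Fcna, and Cd163 and Timd4, in NM1 KO, and Retnla and Fcna, and Mrc1 and Timd4, in WT.

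The members differed in level between libraries of the same group as well. NM1 KO replicate 1 had the lowest level within NM1 KO for 9 of the 10, all but Mrc1, and the lowest of all 6 libraries for 7. Its median log2 level against the WT mean was -1.46, while those of NM1 KO replicates 2 and 3 were -0.37 and -0.20. In WT, replicate 3 had the highest level for all 10 members, and the highest of all 6 libraries for 8. WT replicate 2 was lowest within WT for 7 and lay below the WT mean for all 10. The medians of WT replicates 1 to 3 against the WT mean were -0.16, -0.49 and 0.41, so NM1 KO replicates 2 and 3 lay within the WT range by this measure. The shares of all genes lowest or highest in each library were not computed, so these counts may not be particular to the members. Over all genes tested, NM1 KO replicate 1 also had the lowest correlations of log2 CPM with the WT libraries, at 0.939, 0.937 and 0.934 for WT replicates 1 to 3.

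**Figure D4:**
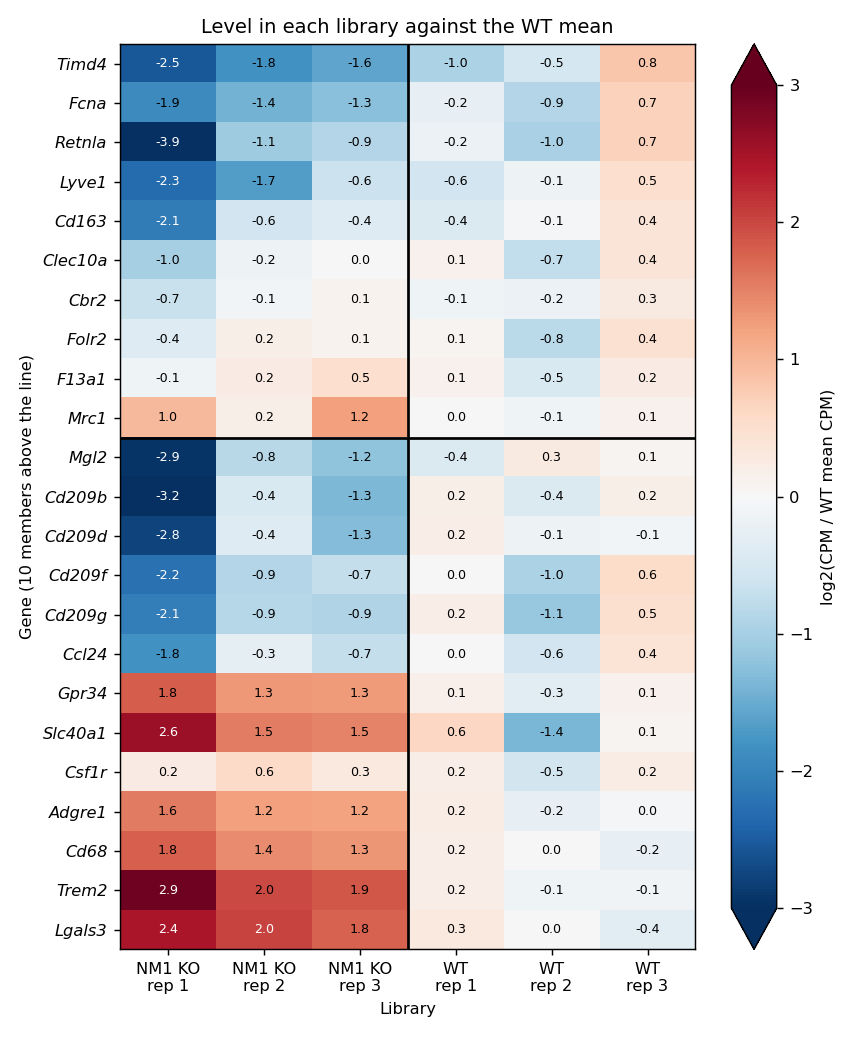
Log2 of CPM over the WT mean (colour) in each NM1 KO and WT library, for the 10 members above the line and 13 other macrophage genes below it. NM1 KO replicate 1 is the lowest library for 7 of the 10 members, with Retnla at -3.93, while Trem2 is highest there, at 2.92.

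Other genes of the same programmes showed both directions. Of 20 further genes of resident macrophages, 1 was called higher and none lower, with 11 positive and 9 negative log2 fold changes and a median of 0.046. The background shares were 2.79% of all genes called higher and 1.47% called lower. Gpr34, a receptor for lysophosphatidylserine, rose to 18.0 ± 4.06 CPM in NM1 KO, against 6.40 ± 1.14 CPM in WT (log2 1.495 ± 0.22, adjusted p = 0.0240), and the call was lost without any 1 WT library or NM1 KO replicate 3 (adjusted p up to 0.0939). The Gpr34 call was also lost with the replicate number as a block joined with the GC and length offset. Slc40a1, the iron exporter ferroportin, differed by 1.96 ± 0.52 on the log2 scale (adjusted p = 0.0808), and Selenop, a selenium carrier, by 0.75 ± 0.28 (adjusted p = 0.165), and edgeR called neither. Both were picked out after their values were seen. DESeq2 called Gpr34 and Slc40a1 (adjusted p = 0.00127) higher, limma-voom called 1 gene of the list higher and 1 lower, and 5 were higher and 4 lower at an unadjusted p under 0.05.

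In the same list, 4 lectin genes of the Cd209 family, likewise picked out after their values were seen, were low in the same library as Retnla. Cd209d was at 7.05, 36.5 and 19.4 CPM in NM1 KO replicates 1 to 3, against 55.3, 43.3 and 45.4 CPM in WT replicates 1 to 3. Cd209b was at 4.92, 33.5 and 17.9 CPM in NM1 KO replicates 1 to 3, against 51.1, 33.8 and 51.8 CPM in WT replicates 1 to 3. For these 2 genes the ranges did not overlap, and for Cd209f and Cd209g they did. All 4 were lowest in NM1 KO replicate 1, with log2 fold changes between -1.28 and -1.14. None of the 4 was called by edgeR (lowest adjusted p = 0.184) or DESeq2, and limma-voom called Cd209d lower (adjusted p = 0.0435). Genes of such a family can share reads, so their single levels are uncertain.

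Of 17 further genes of alternative activation and its receptor, 16 could be tested and none was called, with 14 negative and 2 positive log2 fold changes and a median of -0.43. At an unadjusted p under 0.05 there were 2, both lower, DESeq2 called 1 lower and limma-voom none. Il4ra, the interleukin-4 receptor chain, was at 57.2 ± 3.60 CPM in NM1 KO and 94.8 ± 43.3 CPM in WT (adjusted p = 0.187), with the WT spread set by replicate 2. Arg1, picked out after its values were seen, was at 5.79, 2.35 and 1.68 CPM in NM1 KO replicates 1 to 3. In WT replicates 1 to 3 it was at 0.998, 23.9 and 2.12 CPM. Chil3 was at 1.29, 0.977 and 1.20 CPM in NM1 KO, against 0.370, 5.15 and 0.481 CPM in WT. Both had negative log2 fold changes with WT replicate 2 far above the rest. How far this held for the list was not tested. Ccl24, an eosinophil chemokine, was at 19.9 ± 9.36 CPM in NM1 KO and 34.7 ± 11.2 CPM in WT (adjusted p = 0.273). Among 7 factors that maintain, recruit or activate macrophages, 5 could be tested and none was called by edgeR or limma-voom, while 1 was lower at an unadjusted p under 0.05 and DESeq2 called 1 lower. That gene was Il33, an alarmin of stromal cells, at 16.5 ± 2.79 CPM in NM1 KO and 29.9 ± 10.3 CPM in WT (edgeR adjusted p = 0.119). Csf1, the main macrophage growth factor, was at 159 ± 42.8 CPM in NM1 KO and 198 ± 22.4 CPM in WT (adjusted p = 0.405).

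Of 14 general macrophage markers, 5 rose by edgeR's test (2.79% of all genes tested), namely Adgre1, Cd68, Lyz2, Tyrobp and Lgmn, and the other 9 did not pass it. The median log2 fold change over the list was 0.51, with 13 positive and 1 negative, and 9 of the 14 had ranges above WT (14.9% of all genes tested). Their summed level lay between 5690 and 7004 CPM in NM1 KO and between 3032 and 3997 CPM in WT. Adgre1, which encodes F4/80, was at 287, 226 and 221 CPM in NM1 KO replicates 1 to 3, against 114, 81.6 and 94.7 CPM in WT replicates 1 to 3. Csf1r, the receptor of the growth factor, was at 519 ± 66.2 CPM in NM1 KO and 399 ± 108 CPM in WT and was not called (adjusted p = 0.339). The 5 calls were lost without WT replicate 2, WT replicate 3 or NM1 KO replicate 3, when 4, 1 and 5 genes in all were called, and those of Lyz2, Tyrobp and Lgmn also without WT replicate 1. Without NM1 KO replicate 1, 3 of the 5 were called, and Lyz2 and Lgmn were not. Of 10 genes of lipid-associated macrophages, 7 rose (2.79% of all genes tested), with a median log2 fold change of 2.63, and all 10 had ranges above WT (14.9% of all genes tested). None of these 10 was called without WT replicate 2, WT replicate 3 or NM1 KO replicate 3. There were 2 calls without WT replicate 1, 3 without NM1 KO replicate 1 and 3 with no filter on low counts. Trem2, their lipid receptor, was highest in NM1 KO replicate 1 (233 CPM against 122 and 112 CPM in replicates 2 and 3), the library in which most members were lowest.

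**Figure D5:**
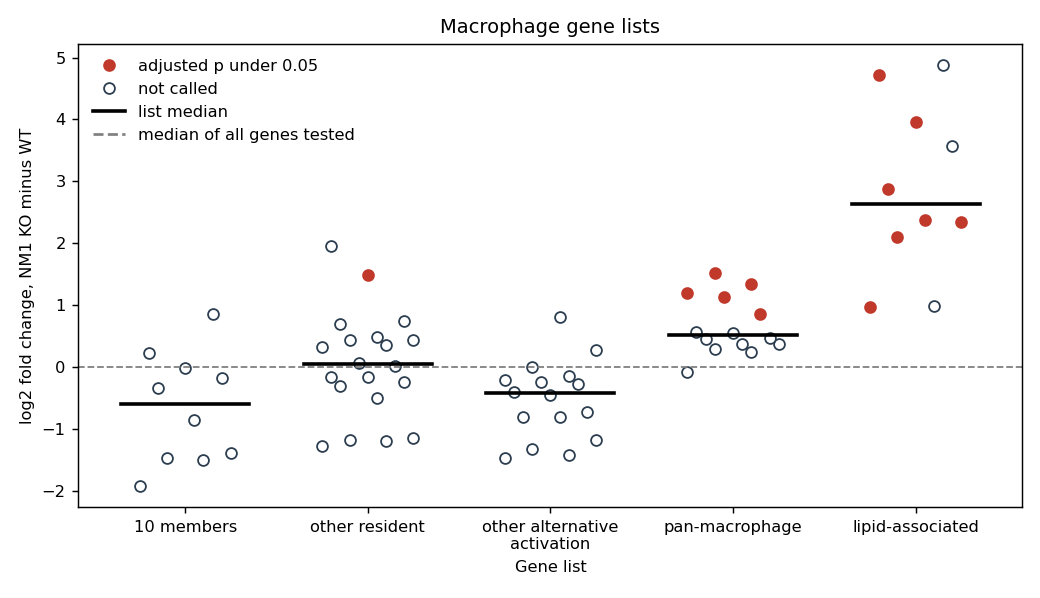
Log2 fold change (vertical axis, NM1 KO minus WT) of the tested genes of 5 macrophage lists. Points are genes, filled where the adjusted p was under 0.05, bars are list medians and the dashed line is the median of all genes tested. The medians are -0.59 for the members and -0.43 for other genes of alternative activation, 0.046 for other resident genes, 0.51 for general markers and 2.63 for lipid-associated genes.

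Levels were then set against the general markers within each library, as log2(CPM + 0.5) of a member minus the mean of log2(CPM + 0.5) over the 14 markers. That mean was 7.62 ± 0.14 in NM1 KO and 6.94 ± 0.105 in WT (SD, n = 3 each), a difference of 0.68 (exact permutation p = 0.1, two-sided, the smallest that 3 against 3 can give). The ratios did not overlap and were lower in NM1 KO for 6 of the 10 members, Timd4, Lyve1, Cd163, Fcna, Cbr2 and Retnla. Of all genes tested, 68.4% showed the same and 1.72% the reverse, so this count sets nothing apart. The differences of these 6 ratios lay between -2.48 for Retnla and -0.88 for Cbr2. Each had an exact permutation p of 0.1, or 0.167 when adjusted over the 10 members. For Timd4 the log2 ratio was -5.54, -4.63 and -4.42 in NM1 KO replicates 1 to 3, against -3.14, -2.76 and -1.58 in WT replicates 1 to 3. Mrc1 had a log2 ratio of 0.80 ± 0.51 in NM1 KO and 0.69 ± 0.08 in WT (SD, n = 3 each), a difference of 0.11 ± 0.30 (SE, exact permutation p = 0.7), with its NM1 KO libraries on both sides of the WT range.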

How the data were processed

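RNA of 6 visceral fat samples was sequenced after library preparation with the NEBNext Ultra II RNA kit, per the labels' protocols. Tools named in the submitters' processing notes are HTSeq, HISAT2 2.0.4, Trimmomatic 0.36, SAMtools 0.1.19 and FastQC, with the build GRCm38 (mm10). Annotation and strandedness of the counts: not given in the sources used here. Genes with overlapping, antisense or near-identical partners are therefore uncertain. The authors deposited whole-number counts per Ensembl gene without normalization, and 0 entries named no gene. Of 46603 identifiers, 46091 matched GENCODE M21. The replicates differed by more than sampling noise (chi-square per degree of freedom of at least 35.9 within groups).

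Samples were grouped by genotype. The test of the counts was that of edgeR 4.0.16 under R 4.3.3 (filterByExpr, TMM, robust quasi-likelihood, genotype as the only term, two-sided, Benjamini-Hochberg over 15828 genes, threshold 0.05). SE is the log2 fold change over the square root of F. The common biological coefficient of variation was 25.3%. In simulated counts of 15649 genes for NM1 KO against WT, of which 198 were changed, 25% of the 2-fold and 96.9% of the 4-fold changes were recovered. The simulation gave every gene this same common variation, so these shares do not hold for genes that vary more between libraries. Retnla (SE 0.75) and Timd4 (SE 0.50) were not simulated with their own spread. Alternatives were RLE factors, library totals, 2 other filters on low counts, DESeq2 1.42.0, limma-voom (limma 3.58.1), the replicate number as a block, a GC and length offset, and leaving out each library. Ratios used scipy 1.17.1 and a pseudocount of 0.5 CPM. Named genes were all 10 members, the called members of each further list or those with the smallest p, and a few stated exceptions, and not every gene selected is printed. The members and lists were chosen with earlier results of these data known. Figures used matplotlib 3.10.9.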

Additional observations from a re-analysis of the deposited data

How the results depend on the processing

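With main counts of 441 genes called higher and 232 lower, DESeq2 gave 1300 and 939, limma-voom 965 and 683, and the replicate block 258 and 78 (1.63% and 0.493% of all genes). Leaving out 1 library gave between 1 and 1181 higher and between 0 and 473 lower. The lowest were those without WT replicate 3 (1 and 0), WT replicate 2 (4 and 0) and NM1 KO replicate 3 (4 and 1), followed by WT replicate 1 (32 and 5) and NM1 KO replicate 1 (175 and 69), and the highest that without NM1 KO replicate 2 (1181 and 473). The cause was not tested.

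Of the members, 0 were called in the main analysis, 1 higher and 3 lower by DESeq2, 1 higher and 1 lower by limma-voom, and 2 lower (Timd4 and Lyve1) with the replicate block, also when joined with the GC and length offset, where 1.4% of all genes were called lower. Leaving out 1 library gave between 0 and 1 higher (Mrc1, without NM1 KO replicate 2) and 0 lower. The labels do not say that replicate numbers pair mice, so the numbers were not taken as pairs. Same-numbered libraries had correlations of -0.06, -0.0354 and 0.188, in deviations from the group means. The last was the highest between any NM1 KO and WT library, while NM1 KO replicate 1 correlated best with WT replicate 2 (0.107). These correlations do not settle the pairing.

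Among 150 alternative estimates of the 10 fold changes, 8 changed sign, all of Folr2 or Cbr2. Folr2 was 0.0492 with the block, 0.0346 with the GC and length offset and 0.117 with both, and between -0.29 and 0.27 when 1 library was left out. Cbr2 was 0.00165 with the offset and between -0.34 and 0.031 with 1 library left out. With 1 library left out, Prox1 lay between -0.46 and 2.18, Mmrn1 between -0.103 and 1.58, Ccl21a between -0.335 and 1.73, and Gata6 between -0.31 and 0.0058. The Mrc1 ratio was -0.544 with Adgre1 alone as denominator, and between -0.142 and 0.37 with 1 library left out. The count of 6 non-overlapping lower ratios was 9 with Adgre1 alone and between 6 and 9 with 1 library left out. The shares of all genes under these settings were not computed, so these counts set nothing apart either. Of the called genes named, Adgre1, Cd68, Lyz2, Tyrobp, Lgmn, Trem2 and Gpr34 were not called without WT replicate 2, WT replicate 3 or NM1 KO replicate 3. Calls among the 14 general markers were 5 in the main analysis, 8 by DESeq2 and 3 with the replicate block (Lyz2 and Lgmn lost). There were 4 with library totals alone and 4 with at least 1 CPM in at least 3 libraries. Lgmn lost its call in 9 of 15 alternatives. With 3 libraries a group, differences of 2-fold were often not detectable. No group had the 4 samples that a test for outlying samples needs.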
